A study of Mus musculus with 28 samples.

Results

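The 10 genes described here were picked because they were higher with RA839 in macrophages that have Nrf2 and were not raised by an siRNA against Keap1. They are Mt1, Mt2, Dppa2, Zfyve28, Krt10, Slc25a42, Pbld2, Cilk1, Dnajb2 and Gdap10, with 16 probe sets among the 34945 that name a single gene, out of 18193 genes measured. Mt1 was added as the chromosomal neighbour of Mt2. The genes were chosen by measured values, their log2 changes and adjusted p-values in 3 comparisons, so these comparisons (RA839 against DMSO in Nrf2+/+ cells, and siKeap1-1 and siKeap1-2 each against a control siRNA) are given as a description only.

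Total bone marrow of 12-week-old mice (strain C57BL/6 J) was cultured into macrophages, and RNA was read on 28 Affymetrix arrays, 4 per group. In the compound experiment, Nrf2-/- cells (KO) and Nrf2+/+ cells (WT) were incubated for 4 h with RA839, a small molecule that binds Keap1, or with DMSO alone, at 0.2% DMSO throughout. This gave the groups KO RA839, KO DMSO, WT RA839 and WT DMSO. In the siRNA experiment, cells that were all Nrf2+/+ received siKeap1-1 or siKeap1-2, which both target Keap1, or a control siRNA (siControl). The design text calls the 4 arrays of a group biological replicates. The dose of RA839, the siRNA sequences, the time after transfection and the part of Nfe2l2 that the KO mice lack were not given in the sources used here. Sample labels write RA839, and the design text once writes RA838.

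Nrf2 is a transcription factor encoded by Nfe2l2, and Keap1 binds it and directs its degradation. When that hold is loosened, Nrf2 enters the nucleus, pairs with small Maf proteins at antioxidant response elements and switches on genes of glutathione synthesis, quinone reduction and heme breakdown. Metallothioneins such as Mt1 and Mt2 are small cysteine-rich proteins that bind zinc and copper. Their genes are switched on by the zinc-sensing factor MTF-1 through metal response elements, and their mouse promoters also respond to oxidants and glucocorticoids.

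Promoter windows of 300 bases, from 250 before to 50 after the annotated start, were taken from RefSeq (GRCm38.p6) for 9 of the 10 genes, 11 windows in all; Dppa2 had none. The pair Mt2 and Mt1 lies on chromosome 8 with 0 annotated genes between them. Their windows and the second window of Dnajb2 are shown because they held the most motif matches among the 10 genes. Capitals mark matches, on either strand, to the metal response element core (TGCACNC or TGCGCNC) and to the antioxidant response element core (TGACNNNGC).
Mt2, chr8:94172368-94172667, plus strand: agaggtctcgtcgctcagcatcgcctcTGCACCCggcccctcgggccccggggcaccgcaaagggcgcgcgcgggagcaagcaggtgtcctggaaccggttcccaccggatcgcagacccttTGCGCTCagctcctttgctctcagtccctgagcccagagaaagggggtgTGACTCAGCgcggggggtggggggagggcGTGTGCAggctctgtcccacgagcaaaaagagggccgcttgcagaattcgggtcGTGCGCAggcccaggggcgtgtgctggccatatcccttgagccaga
Mt1, chr8:94178839-94179138, plus strand: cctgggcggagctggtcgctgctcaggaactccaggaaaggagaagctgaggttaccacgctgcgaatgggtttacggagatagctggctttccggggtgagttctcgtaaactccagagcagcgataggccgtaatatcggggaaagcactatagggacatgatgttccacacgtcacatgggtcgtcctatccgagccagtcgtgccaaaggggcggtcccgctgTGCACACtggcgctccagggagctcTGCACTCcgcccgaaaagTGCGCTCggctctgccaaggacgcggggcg
Dnajb2, chr1:75236452-75236751, plus strand: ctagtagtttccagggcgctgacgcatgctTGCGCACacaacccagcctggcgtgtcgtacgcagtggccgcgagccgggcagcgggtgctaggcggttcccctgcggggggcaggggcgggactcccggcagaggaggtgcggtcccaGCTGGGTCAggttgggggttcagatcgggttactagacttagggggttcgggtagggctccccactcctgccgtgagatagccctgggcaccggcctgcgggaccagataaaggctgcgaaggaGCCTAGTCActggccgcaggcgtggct

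The Mt2 window held 4 matches to the metal response element core and 1 to the antioxidant response element core, TGACTCAGC, at bases -79 to -71 from the start. The Mt1 window held 3 metal response element matches and 0 antioxidant response element matches. Bases outside the windows were not searched, so a count of 0 holds for the window alone and depends on the annotated start. At least as many metal response element matches occurred in 0.517% of all 32851 windows for the Mt2 count and in 1.97% for the Mt1 count, while 25.7% held 1 or more. The Dnajb2 window held 2 antioxidant response element matches on the minus strand, GCTGGGTCA and GCCTAGTCA as printed, and 0.986% of windows held at least as many. An antioxidant response element core was present in 4 of the 11 windows, against 12.4% of all windows. These were 1 each of Mt2 and Cilk1 and both of Dnajb2. A metal response element core was also in 4 of the 11, against 25.7% of all windows. These were the windows of Mt2 and Mt1, the first of Cilk1 and the second of Dnajb2. Windows of 1 gene are not independent. The heat shock element core GAANNTTC, present in 7.86% of windows, was in 0 of the 11. The motifs do not overlap in the windows printed, and a match is a run of letters, not a measured binding site.

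The targeted genes followed the labels. Nfe2l2 read 3.27 ± 0.08 and 3.40 ± 0.11 in KO RA839 and KO DMSO arrays, against 12.30 ± 0.32 and 12.72 ± 0.20 in WT RA839 and WT DMSO arrays (log2 RMA signal, mean ± SD, n = 4, as in all means below). Keap1 read 9.06 ± 0.09 with siKeap1-1 and 9.26 ± 0.15 with siKeap1-2, against 11.09 ± 0.10 with siControl. All 9 macrophage markers lay above the array median in every group, with array means of 12.1 to 13.0. Of 10 marker lists, covering macrophages and the other cell types such cultures could hold, 0 had a gene past the threshold (adjusted p under 0.05, limma) with RA839 in WT or in KO. In the other comparisons markers did pass: of the 52 measured, 10 were higher and 14 lower in KO against WT, 3 higher and 6 lower with siKeap1-1, and 2 higher and 3 lower with siKeap1-2. Over all genes, 21.1% were higher and 23.6% lower in KO against WT. The shares were 8.67% higher and 6.39% lower with siKeap1-1, and 6.32% higher and 4.89% lower with siKeap1-2. Among the 9 macrophage markers, 2 were higher and 4 lower in KO, 4 were lower with siKeap1-1 and 3 were lower with siKeap1-2. In KO 3 of 8 neutrophil markers were also lower and 2 of 3 B cell markers higher, and with siKeap1-1 2 of 5 dendritic cell markers were lower. The B cell markers read low, with 0 or 1 of the 3 above the array median in each group. Of the 8 neutrophil markers, 2 were higher with siKeap1-1 and 1 with siKeap1-2. Of 4 megakaryocyte markers, 1 was higher with each siRNA. The part of these differences in the results below was not tested. In bulk RNA, fewer cells of a type and less RNA per cell cannot be told apart. One array stood apart: WT RA839 array 2 had a 3′ minus 5′ difference of 3.74 for the Gapdh control probe sets, against 0.77 to 1.00 on the other compound arrays, and of 3.10 for Actb, against 1.28 to 2.04. That array was the highest of its group for 5 of the 10 genes, against 39.9% of all genes, so the WT changes of these 5 genes, and that of Mt2, are also given without it.

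Changes are log2 fold changes ± standard error from limma over 18193 genes, each represented by its brightest probe set, and the threshold is a Benjamini-Hochberg adjusted p under 0.05. RA839 against DMSO in WT raised 104 genes (0.572%). Of these, 88 (84.6%) were also raised by at least 1 Keap1 siRNA, 70 of them by both, and 16 (15.4%) by neither. With the replicate number as a block, 315 genes were raised, 240 of them (76.2%) also by at least 1 siRNA and 75 (23.8%) by neither. The 104 became 65 without WT RA839 array 4 and 67 without WT DMSO array 1, and the 16 ran from 9 (without WT RA839 array 3, or without WT DMSO array 1 or 2) to 26 (without siControl array 2). The 16 held 9 of the genes described here; the other 7 were AU016916, AV039307, Gm32031, Neil1, Rdh16f2, Stradb and Zfp874b. Mt1 was among the 88. It therefore goes against the description of the group and is described as the neighbour of Mt2. The WT changes ran from 0.31 (Mt1) to 1.57 (Dppa2), and the RA839 arrays lay above all DMSO arrays for all 10 genes, against 3.4% of all genes. Among the 10 genes Mt1 and Dppa2 stood nearest inside the threshold (adjusted p = 0.0378 and 0.0334, limma). Among all genes higher with RA839, Pum3 (0.0523) and C030034I22Rik (0.0539) were the nearest outside it. In the pool, Rdh16f2 (0.0389) and Neil1 (0.0378) also stood near it. Leaving out any 1 of the 8 WT arrays left 6 to 8 of the 9 in the pool; those lost were among Mt2, Dppa2, Krt10, Cilk1 and Dnajb2. On the siRNA side Gdap10 stood nearest the limit among the 9, with adjusted p-values of 0.142 for siKeap1-1 and 0.072 for siKeap1-2 (limma). Elsewhere in the pool, Zfp874b stood as near it, with 0.0713 for siKeap1-1.

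**Figure D1:**
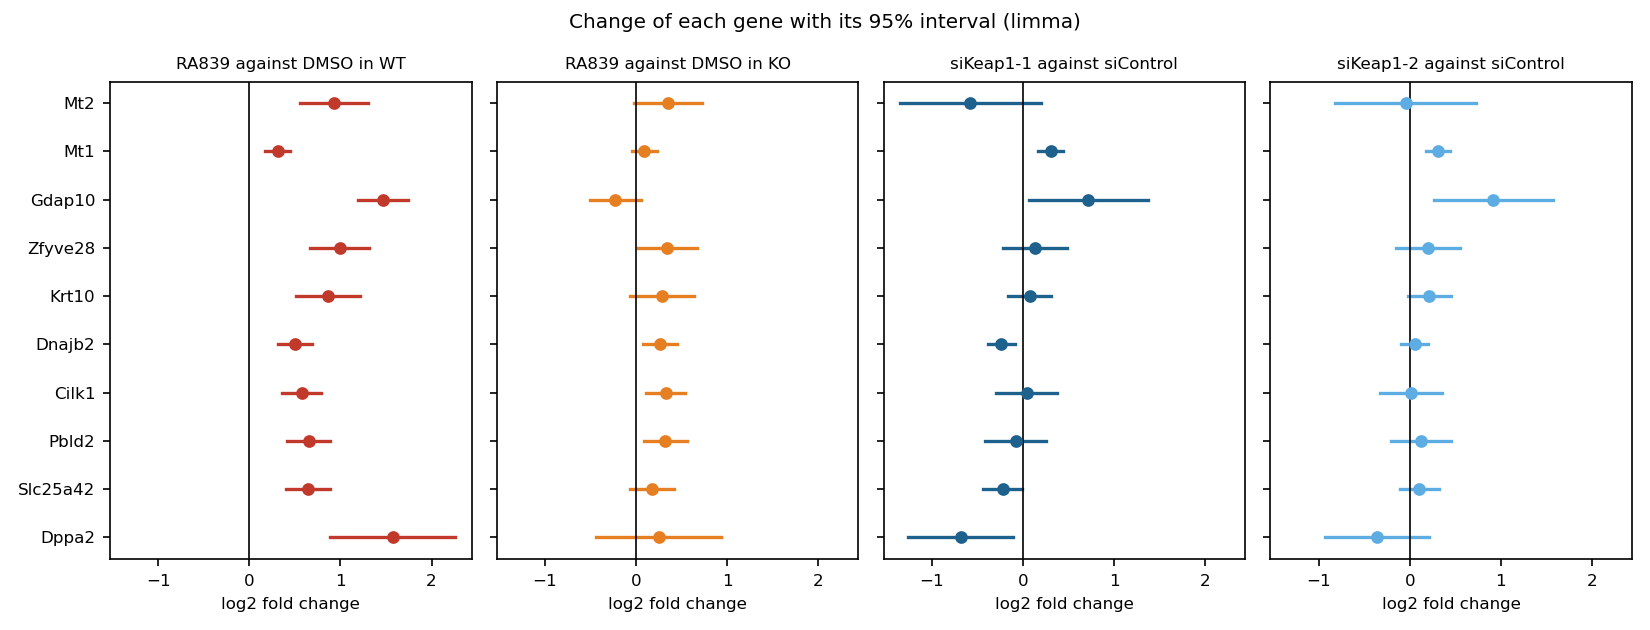
Log2 fold change of each gene (rows, brightest probe set) in 4 comparisons, with 95% intervals from limma, n = 4 arrays per group. With RA839 in WT all 10 intervals lie above 0; with the siRNAs only Mt1 and Gdap10 have intervals above 0 for both.

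The difference between KO RA839 and KO DMSO was not part of the rule, but the KO arrays entered the fit over 16 arrays whose residual spread set the WT p-values. With only the compared groups in each fit, 1 of the 9 genes, Gdap10, stayed in the pool. Genes with little spread among the KO arrays thus had more chance of being chosen, and the KO counts are not independent of the choice. Of the 10 genes, 9 had a positive change with RA839 in KO cells. In 6 of them (Mt1, Mt2, Zfyve28, Pbld2, Cilk1 and Dnajb2) all 4 KO RA839 arrays lay above all 4 KO DMSO arrays, against 1.19% of all genes. The KO RA839 arrays lay below all KO DMSO arrays for 0 of the 10, against 0.923% of all genes. The median change was 0.27 over the 10 genes and 0.003 over all genes. The 87 other genes raised by RA839 in WT and by at least 1 siRNA had a median of 0.01, and 2 of the 87 (2.3%) had non-overlapping arrays with RA839 higher. Mt1, 1 of the 6 genes with non-overlapping arrays, was also raised by the siRNAs but is counted with the 10. The 7 other genes raised by neither siRNA had a median of 0.18, and 1 of the 7 had non-overlapping arrays. No test of this difference between the gene groups was made.

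None of the 10 genes passed the threshold in KO cells, where 0 genes of 18193 (0%) did: each had an adjusted p of 1 (limma). At an unadjusted p under 0.05, 321 genes differed in either direction (1.76%), and 226 of them were higher (1.24%). These 226 included 4 of the 10 genes, Cilk1 (0.33 ± 0.10), Pbld2 (0.32 ± 0.11), Dnajb2 (0.26 ± 0.09) and Zfyve28 (0.34 ± 0.15). Their unadjusted p-values in limma ran from 0.00539 for Cilk1 to 0.0389 for Zfyve28. Of the 7 other genes raised by neither siRNA, 4 (57.1%) were also among the 226, as were 4 of the 87 (4.6%). Arrays with the same replicate number deviated together in KO cells (correlations across genes of 0.66 to 0.70), and 7 of the 10 genes were higher with RA839 in all 4 numbered pairs, against 9.51% of all genes. The same held for 2 of the 7 and 13 of the 87 other genes. With the replicate number as a block, the adjusted p was 0.857 for Mt2 and 1 for the other 9.

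**Figure D2:**
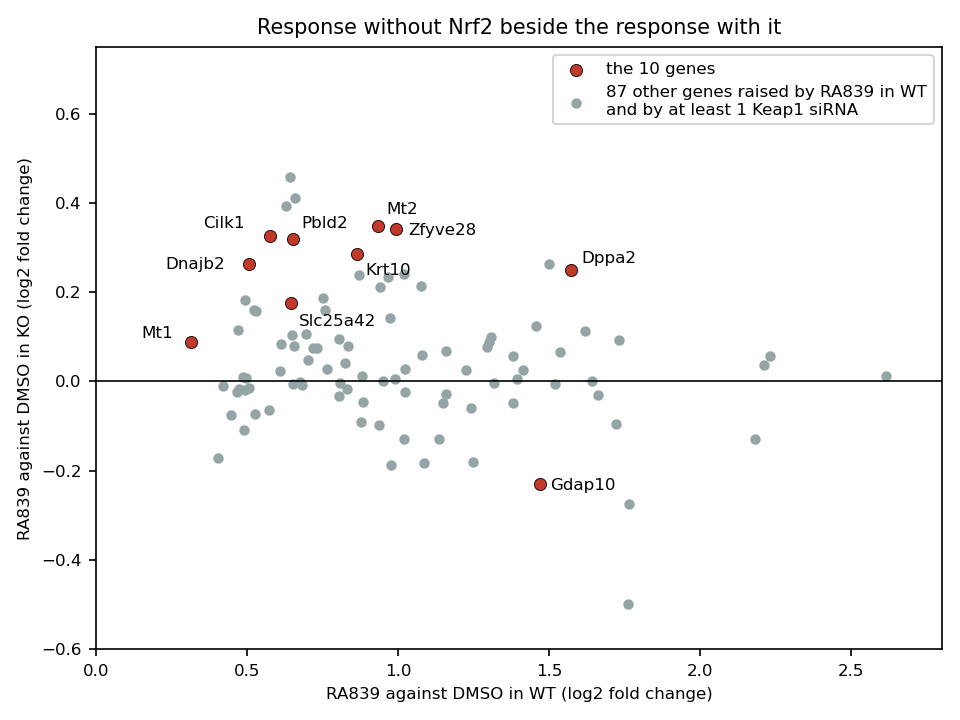
Log2 fold change with RA839 in KO cells (vertical) against that in WT cells (horizontal) for the 10 genes (red) and 87 other genes raised by RA839 in WT and by at least 1 Keap1 siRNA (grey), 1 point per gene, mean of 4 arrays against 4. In all, 9 of the red points lie above 0 on the vertical axis and Gdap10 below it; the grey points scatter around a median of 0.01.

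Of the 10 genes, Mt2 had the largest rise in KO against WT. Its probe set 1428942_at read 13.26, 13.07, 13.15 and 13.33 in the KO RA839 arrays and 12.87, 12.79, 12.74 and 13.01 in the KO DMSO arrays. It read 11.72, 12.13, 12.32 and 11.81 in the WT RA839 arrays and 10.72, 11.30, 11.53 and 10.70 in the WT DMSO arrays. None of these 4 groups overlapped another, and each KO array lay above every WT array. The change with RA839 was 0.35 ± 0.17 in KO and 0.93 ± 0.17, or 1.91-fold, in WT. Averaged over both treatments, Mt2 rose in KO against WT by 1.50 ± 0.12, or 2.83-fold (adjusted p = 1.95e-07, limma). In DMSO alone, KO minus WT was 1.79 ± 0.17. Without WT RA839 array 2 the WT change was 0.89 ± 0.19, and its adjusted p of 0.0526 would have left Mt2 out of the pool.

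In the siRNA experiment Mt2 varied widely within each group. It read 12.27, 11.73, 11.44 and 11.46 with siKeap1-1, 12.96, 12.49, 11.99 and 11.59 with siKeap1-2, and 13.11, 12.43, 12.23 and 11.45 with siControl. The 3 groups overlapped, and in each the array numbered 1 was the highest. The changes were -0.58 ± 0.35 with siKeap1-1 and -0.05 ± 0.35 with siKeap1-2. The siKeap1-1 change did not pass the threshold without a block (adjusted p = 0.336) and passed as lower with the replicate block (adjusted p = 0.0121, limma). The rule used this comparison, so both values are a description.

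Mt1 was represented by probe set 1422557_s_at, whose values lay between 13.40 and 13.86 on all 28 arrays, where the table reached 15.2. It read 13.81, 13.75, 13.76 and 13.79 in KO RA839 arrays and 13.71, 13.64, 13.70 and 13.71 in KO DMSO arrays. It read 13.74, 13.83, 13.83 and 13.73 in WT RA839 arrays and 13.41, 13.43, 13.59 and 13.45 in WT DMSO arrays. The WT DMSO arrays were thus the lowest of the compound experiment, and the other 3 groups lay close together. The change with RA839 was 0.09 ± 0.07 in KO and 0.31 ± 0.07 in WT. KO against WT averaged over treatments gave 0.11 ± 0.05, which did not pass the threshold (adjusted p = 0.0726, limma). In DMSO alone, KO minus WT was 0.22 ± 0.07. The averaged change passed without WT DMSO array 3 (0.13, adjusted p = 0.0392) and without WT RA839 array 2 (0.12, adjusted p = 0.0378), and after quantile normalization (0.14, adjusted p = 0.0274).

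Both Keap1 siRNAs were above siControl for Mt1. The probe set read 13.86, 13.81, 13.83 and 13.82 with siKeap1-1 and 13.86, 13.86, 13.85 and 13.78 with siKeap1-2, against 13.70, 13.53, 13.48 and 13.40 with siControl. Neither siRNA group overlapped the control. The changes were 0.30 ± 0.06 (adjusted p = 0.0057) with siKeap1-1 and 0.31 ± 0.06 (adjusted p = 0.00631) with siKeap1-2 (limma). On the same arrays Mt2 had changes below 0, and the difference between the neighbours was not tested.

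A second Mt1 probe set, 1451612_at, read lower and had larger changes with larger standard errors. It read 7.47, 7.35, 7.73 and 7.95 in KO RA839 arrays and 6.92, 6.79, 7.39 and 7.33 in KO DMSO arrays, with 6.89, 7.10, 7.08 and 6.85 in WT RA839 arrays and 6.38, 6.13, 6.64 and 6.36 in WT DMSO arrays. The KO groups overlapped, but RA839 was higher in all 4 numbered pairs, and the change was 0.52 ± 0.16 (unadjusted p = 0.00498, adjusted p = 1 over all probe sets, limma). KO against WT averaged over treatments gave 0.69 ± 0.11 (adjusted p = 0.000169), so this probe set rose in KO where the other did not pass the threshold. Its WT change with RA839, 0.60 ± 0.16, did not pass (adjusted p = 0.171 over all probe sets), and Mt1 loses its WT call where this probe set represents it (adjusted p = 0.137 over genes, limma). The siRNA changes were 0.56 ± 0.12 with siKeap1-1 (adjusted p = 0.00957) and 0.42 ± 0.12 with siKeap1-2 (adjusted p = 0.0542 over all probe sets and 0.0374 over genes, limma).

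**Figure D3:**
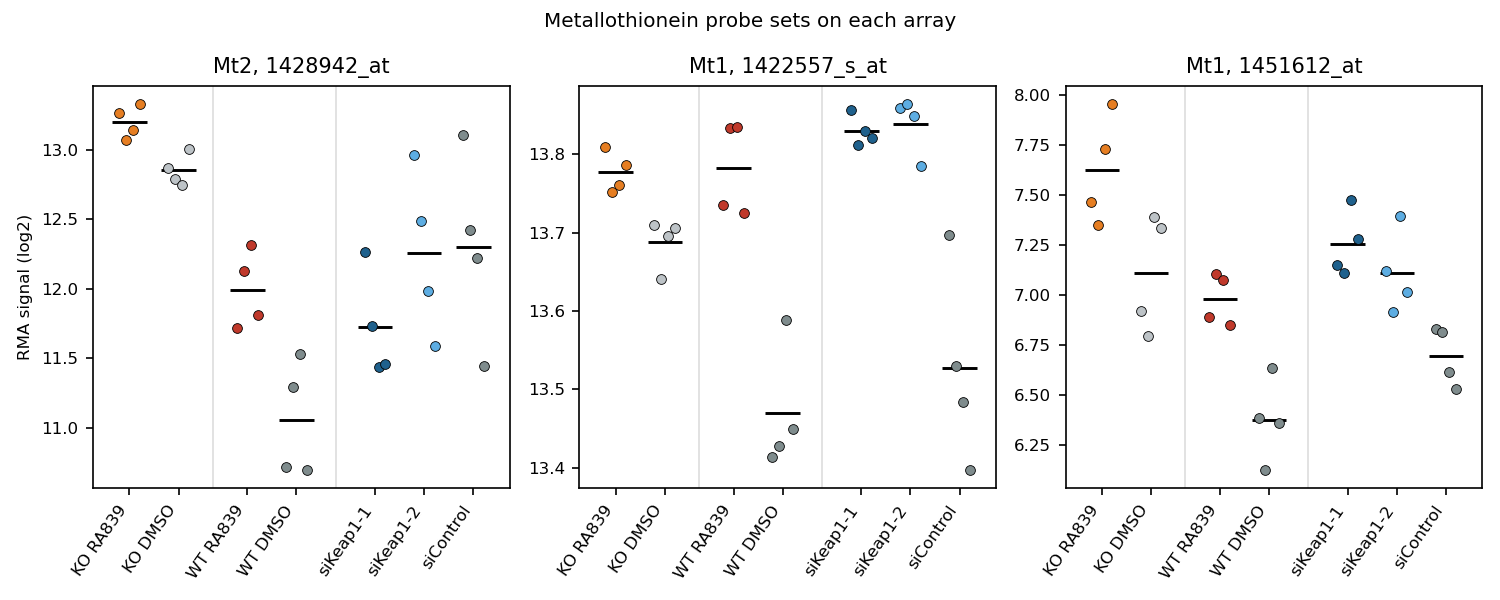
Log2 RMA signal of the Mt2 probe set and both Mt1 probe sets on each of 28 arrays (points, in replicate order within a group), with group means (bars); each panel has its own vertical scale, which does not start at 0. Mt2 separates KO from WT arrays without overlap, and Mt1 is higher with both Keap1 siRNAs than with siControl.

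Other genes of metal handling were compared from a list of Mt3, Mt4, the transcription factor gene Mtf1 and the zinc carriers Slc30a1 and Slc39a10. With RA839, 0 of the 5 passed the threshold in WT or in KO, and the median change was 0.04 in KO and -0.06 in WT, beside 0.003 in KO and -0.009 in WT for all genes. Slc30a1, which exports zinc from the cell and is a target of MTF-1, had a change of 0.18 ± 0.11 in KO and 0.51 ± 0.11 in WT (adjusted p = 1 and 0.0563). It rose with siKeap1-1 by 0.54 ± 0.09 (adjusted p = 0.00228) and with siKeap1-2 by 0.53 ± 0.09 (adjusted p = 0.00327). In KO against WT averaged over treatments, Slc30a1 fell by 0.51 ± 0.08 (adjusted p = 0.000115), the opposite direction to Mt2, and Mtf1 rose by 0.43 ± 0.07 (adjusted p = 8.67e-05). Slc39a10, a zinc importer, fell by 0.80 ± 0.10 (adjusted p = 8.64e-06) in the same comparison and rose with siKeap1-1 by 0.49 ± 0.12 (adjusted p = 0.0136). With siKeap1-2 the change of Slc39a10 was 0.09 ± 0.12 and did not pass (adjusted p = 0.687, limma). Mt3 (-0.24) and Mt4 (-0.34) also fell in KO against WT. Of 21 further zinc transporters, 10 genes of copper handling and 12 glucocorticoid-induced genes, 0 passed the threshold with RA839 in either genotype. In WT 120 of all 18193 genes passed in either direction, and in KO 0 did. A count of 0 in a short list, here and below, therefore lies near the share of all genes and does not set the 10 genes apart.

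A list of 27 measured NRF2 core targets shows how the canonical response ran on the same arrays. With RA839, 0 rose in KO (median 0.02) and 6 rose in WT (median 0.42). With siKeap1-1 and with siKeap1-2, 21 rose in each (median 0.56 and 0.71). All 27 fell in KO against WT averaged over treatments (median -1.65). Nqo1, a quinone reductase, fell by 4.94 ± 0.08 there (adjusted p = 8.76e-16), and Gclm, a subunit of the first enzyme of glutathione synthesis, by 2.85 ± 0.14 (adjusted p = 7.93e-10).

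Against that background the 10 genes were mixed between genotypes. In KO against WT averaged over treatments, 2 rose (21.1% of all genes did) and 5 fell (23.6%), while Mt1, Krt10 and Dnajb2 did not pass the threshold. This comparison is not the RA839 minus DMSO difference that chose the genes. It does take in the WT RA839 arrays, and it shares the residual spread of the fit used for the choice. The total of 7 of 10 stands beside 44.7% of all genes, and all 7 calls were also made from the means of same-numbered arrays. The calls of Slc25a42, Cilk1 and Dppa2 depended on the probe set, as given below. The average holds part of each response to RA839, so a larger rise in WT than in KO moves it towards a fall. The counts of rises and falls are thus not independent of the choice. The fall of Gdap10 was not present in DMSO alone. Each gene is therefore also given with its KO minus WT difference in DMSO alone. That difference carries no test because the WT DMSO arrays helped to choose the genes.

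Gdap10 was the 1 gene of the 10 with a negative change in KO. It read 7.28, 7.42, 7.48 and 7.42 in KO RA839 arrays and 7.85, 7.58, 7.61 and 7.47 in KO DMSO arrays. It read 8.87, 8.79, 9.18 and 8.86 in WT RA839 arrays and 7.28, 7.18, 7.80 and 7.57 in WT DMSO arrays. The WT RA839 arrays lay above all 12 others, and the KO groups overlapped, with RA839 lower in all 4 numbered pairs. The change was -0.23 ± 0.13 in KO and 1.47 ± 0.13, or 2.77-fold, in WT. In DMSO alone, KO minus WT was 0.17 ± 0.13, and averaged over treatments Gdap10 fell in KO by 0.68 ± 0.09 (adjusted p = 2.98e-05, limma). With RA839, KO minus WT was -1.53 ± 0.13. The averaged fall thus came from the RA839 arrays and holds the WT change that chose the gene.

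Among the genes described here, Gdap10 was also the least clear case of a gene not raised by the siRNAs. It read 8.23, 8.57, 8.35 and 9.24 with siKeap1-1 and 8.27, 8.33, 9.26 and 9.34 with siKeap1-2, against 7.61, 7.48, 8.23 and 8.22 with siControl. Every array of both siRNA groups lay above every siControl array, by a narrow margin in each, and Gdap10 was higher in all 4 numbered pairs of each comparison. The changes were 0.72 ± 0.30 and 0.92 ± 0.30 (adjusted p = 0.142 and 0.072). With the replicate block both passed the threshold (adjusted p = 0.0156 for siKeap1-1 and 0.00577 for siKeap1-2, limma), so Gdap10 keeps to the rule only without the block.

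Zfyve28 encodes a FYVE-domain protein of endosomes known to restrain signalling by the EGF receptor. It read 6.35, 6.11, 6.30 and 6.17 in KO RA839 arrays and 5.99, 5.92, 5.79 and 5.86 in KO DMSO arrays. It read 7.11, 7.88, 7.12 and 6.94 in WT RA839 arrays and 6.23, 6.34, 6.34 and 6.17 in WT DMSO arrays. RA839 separated the arrays in both genotypes, and the KO RA839 values covered the range of WT DMSO. The WT change of 0.99 ± 0.15 was 0.79 ± 0.08 without array 2. KO minus WT was -0.38 ± 0.15 in DMSO, and averaged over treatments Zfyve28 fell by 0.71 ± 0.11 (adjusted p = 8.36e-05, limma). The siRNA changes were 0.13 ± 0.16 with siKeap1-1 and 0.20 ± 0.16 with siKeap1-2.

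Pbld2 was lower without Nrf2. It read 5.90, 6.07, 5.97 and 6.14 in KO RA839 arrays and 5.81, 5.63, 5.63 and 5.73 in KO DMSO arrays, with 7.20, 7.38, 7.23 and 7.50 in WT RA839 arrays and 6.66, 6.59, 6.44 and 7.01 in WT DMSO arrays. No KO array reached the lowest WT array, and RA839 separated the arrays within each genotype. KO minus WT was -0.97 ± 0.11 in DMSO, and the averaged change was a fall of 1.14 ± 0.08, to 0.454 of the WT signal (adjusted p = 2.89e-08, limma). The siRNA changes were -0.08 ± 0.15 with siKeap1-1 and 0.12 ± 0.15 with siKeap1-2.

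Cilk1 encodes a protein kinase that regulates the length of primary cilia. Probe set 1455687_at read 8.42, 8.33, 8.30 and 8.06 in KO RA839 arrays and 7.97, 8.04, 7.83 and 7.96 in KO DMSO arrays. It read 8.65, 8.94, 8.70 and 8.90 in WT RA839 arrays and 8.28, 8.30, 8.02 and 8.29 in WT DMSO arrays. RA839 separated both pairs of groups, by a narrow margin in KO. The WT change of 0.58 ± 0.10 was 0.53 ± 0.10 without array 2. Averaged over treatments the probe set fell in KO by 0.40 ± 0.07 (adjusted p = 0.00037, limma), and KO minus WT was -0.27 ± 0.10 in DMSO. The 3 other Cilk1 probe sets had RA839 changes between -0.02 and 0.16 in KO and between -0.10 and 0.08 in WT, with no call in either. In KO against WT they were split: 1454243_at fell as 1455687_at did (-0.47 ± 0.13, adjusted p = 0.00892), while 1448310_at and 1457165_at rose (0.36 ± 0.08 and 0.72 ± 0.08, adjusted p = 0.00141 and 7.13e-06). Averaged over all its probe sets, Cilk1 had a KO against WT change of 0.05, with the sign turned, and lost its WT call with RA839 (0.14, adjusted p = 0.569, limma), which left it out of the pool. The siRNA changes were 0.04 ± 0.15 with siKeap1-1 and 0.01 ± 0.15 with siKeap1-2. Of 4 related kinases, 0 passed the threshold with RA839 in either genotype.

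Dnajb2 encodes a J-domain partner of Hsp70 chaperones that binds ubiquitylated proteins. It read 9.30, 9.37, 9.54 and 9.51 in KO RA839 arrays and 9.19, 9.06, 9.24 and 9.18 in KO DMSO arrays. It read 9.49, 9.73, 9.40 and 9.65 in WT RA839 arrays and between 8.99 and 9.16 in the 4 WT DMSO arrays. The RA839 arrays were above the DMSO arrays in each genotype, and the genotypes overlapped. The WT change of 0.50 ± 0.09 was 0.45 ± 0.08 without array 2. KO against WT averaged over treatments was -0.01 ± 0.06 (adjusted p = 0.869, limma) and, without array 2, 0.01 ± 0.06 (adjusted p = 0.88), and KO minus WT was 0.11 ± 0.09 in DMSO. With siKeap1-1 it read 9.42, 9.35, 9.54 and 9.35, and with siKeap1-2 9.77, 9.62, 9.72 and 9.71, against 9.80, 9.64, 9.64 and 9.53 with siControl. The siKeap1-1 change was -0.24 ± 0.07, and the siKeap1-2 change was 0.06 ± 0.07. Among 11 other DNAJB chaperones and 19 cytosolic heat shock chaperones, lists that share members, 0 passed the threshold with RA839 in either genotype. The medians in WT were 0.11 and 0.08. Dnajb4, which is on both lists, had a change of 0.30 ± 0.17 in KO and 0.76 ± 0.17 in WT (adjusted p = 0.0547 in WT, limma). It rose with siKeap1-1 by 0.57 ± 0.08 (adjusted p = 0.000621) and with siKeap1-2 by 0.46 ± 0.08 (adjusted p = 0.0033, limma).

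Slc25a42, a mitochondrial carrier that brings coenzyme A into the matrix, rose in KO against WT, as Mt2 did. It read 6.60, 6.31, 6.52 and 6.58 in KO RA839 arrays and 6.54, 6.26, 6.27 and 6.24 in KO DMSO arrays, with 6.41, 6.36, 6.18 and 6.32 in WT RA839 arrays and 5.97, 5.45, 5.58 and 5.70 in WT DMSO arrays. The WT DMSO arrays lay below all others, and the KO groups overlapped. The averaged KO against WT rise was 0.42 ± 0.08 (adjusted p = 0.000602, limma), and KO minus WT was 0.65 ± 0.11 in DMSO. Its second probe set, 1443637_at, ran the other way, falling by 0.39 ± 0.10 (adjusted p = 0.00633), and the mean of both gave 0.01 (adjusted p = 0.902). With RA839 in WT, 1443637_at changed by -0.03 ± 0.14, against 0.64 ± 0.11 for the brighter probe set, and the mean of both lost the WT call (0.30, adjusted p = 0.272, limma), which left Slc25a42 out of the pool. The siRNA changes were -0.22 ± 0.10 with siKeap1-1 and 0.11 ± 0.10 with siKeap1-2. Of 33 other mitochondrial solute carriers, 0 passed the threshold with RA839 in either genotype.

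Krt10, a keratin of the upper layers of the epidermis, read 7.37, 7.41, 8.03 and 7.83 in KO RA839 arrays and 7.42, 7.08, 7.42 and 7.57 in KO DMSO arrays. It read 7.77, 8.29, 7.55 and 7.78 in WT RA839 arrays and 6.97, 7.06, 6.88 and 7.03 in WT DMSO arrays. The KO groups overlapped, and the KO change was 0.29 ± 0.17. The WT change of 0.86 ± 0.17 was 0.72 ± 0.15 without array 2. The siRNA changes were 0.08 ± 0.11 with siKeap1-1 and 0.22 ± 0.11 with siKeap1-2. Of 18 other keratins, 0 passed the threshold with RA839 in either genotype, with medians of 0.009 in KO and -0.05 in WT. Of the keratinocyte markers, 4 were measured and 1 lay above the array median, with array means of 4.8 to 5.7. KO against WT averaged over treatments was 0.10 ± 0.12 (adjusted p = 0.528, limma), and KO minus WT was 0.39 ± 0.17 in DMSO.

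Dppa2 encodes a nuclear protein of early embryos and pluripotent stem cells, and its probe set read low. Probe set 1453223_s_at read 2.82, 2.74, 3.08 and 2.97 in KO RA839 arrays and 3.35, 2.30, 2.52 and 2.43 in KO DMSO arrays. It read 5.18, 6.32, 4.83 and 4.47 in WT RA839 arrays and 3.85, 4.01, 3.17 and 3.48 in WT DMSO arrays, all 16 values but 1 under the lowest compound array median of 5.61. The KO groups overlapped. The WT change of 1.57 ± 0.32 was 1.20 ± 0.25 without array 2. Averaged over treatments it fell in KO by 1.64 ± 0.23 (adjusted p = 3.76e-05, limma), and KO minus WT was -0.98 ± 0.32 in DMSO. The other Dppa2 probe set, 1429654_at, stood between 2.44 and 3.13 on all 28 arrays, with a WT change of 0.01, and averaged KO against WT it rose by 0.20 ± 0.08 (adjusted p = 0.0485). With siKeap1-1 all 4 arrays of 1453223_s_at lay below the siControl arrays, with a change of -0.68 ± 0.26, and with siKeap1-2 the change was -0.36 ± 0.26. Of 9 other genes of early embryos and pluripotency, 0 passed the threshold with RA839 in either genotype.

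**Figure D4:**
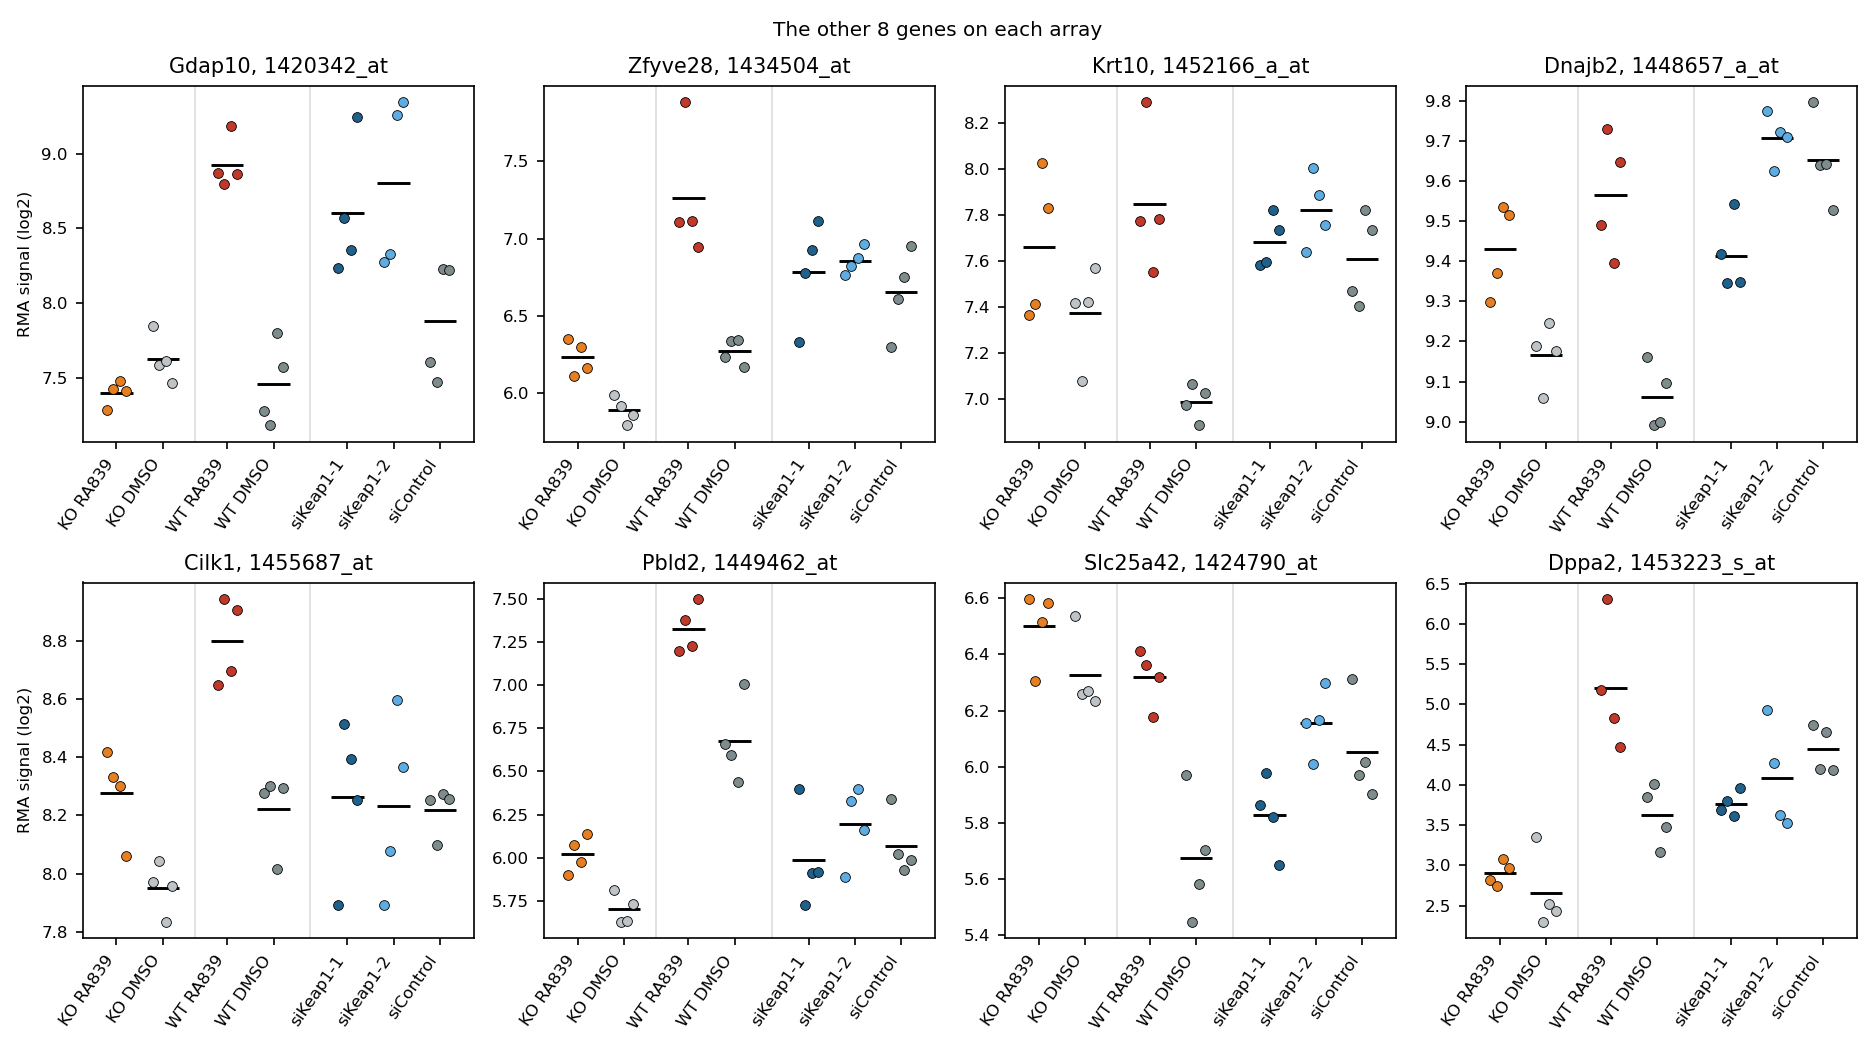
Log2 RMA signal of the representing probe set of the other 8 genes on each of 28 arrays (points, in replicate order within a group), with group means (bars); each panel has its own vertical scale, which does not start at 0. WT RA839 arrays lie above WT DMSO arrays in every panel, and KO RA839 arrays lie above KO DMSO arrays without overlap for Zfyve28, Dnajb2, Cilk1 and Pbld2.

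Across the siRNA comparisons, Mt1 was the 1 gene of the 10 that passed the threshold as higher, with each siRNA, against 8.67% of all genes for siKeap1-1 and 6.32% for siKeap1-2. Dnajb2 was the 1 that passed as lower with siKeap1-1, against 6.39% of all genes, and 0 were lower with siKeap1-2, against 4.89%. Arrays of the siRNA group lay above all siControl arrays for 2 of the 10 genes in each comparison, against 11.5% of all genes for siKeap1-1 and 11.7% for siKeap1-2. The rule used these comparisons, and both share the siControl arrays.

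Genes of like pattern were ranked by Pearson correlation over the 28 arrays, each experiment centred on its control group, as a description of points that share groups and array effects. Nearest to Mt2 were Sh3yl1 (r = 0.95), Hspb11 (0.94) and Gstt1 (0.92), and nearest to Mt1 were Acyp1 (0.81), D16Ertd472e (0.78) and Fam136a (0.76). The nearest genes to the others were Slc17a5 for Dppa2 (0.86), Ypel5 for Zfyve28 (0.86), Fam120aos for Krt10 (0.85) and Ranbp6 for Slc25a42 (0.89). For Pbld2 it was Nudt12 (0.90), for Cilk1 Atp6v1g2 (0.83), for Dnajb2 H2bc21 (0.84) and for Gdap10 Rmc1 (0.86). Within the 10, Mt2 correlated with Slc25a42 at 0.85 and with its neighbour Mt1 at 0.37 over the same arrays.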

How the data were processed

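The deposited values were log2 signals per probe set and array, made by the authors with RMA per the submitters' processing notes (no version is named there). RMA can understate changes of dim probe sets. Array medians of 5.61 to 5.71 in the 16 compound arrays and 5.91 to 5.96 in the 12 siRNA arrays fit separate normalization, so tests stayed within an experiment. No arrays were identical (0 pairs). The number of arrays limits the precision.

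The platform annotation listed 35890 of 45101 probe sets with a gene, 932 of them with several; 34945 named 1 gene and were no controls, and 34741 of these matched RefSeq (GRCm38.p6), changing 0 symbols. Each of 18193 genes was represented by its highest mean over 28 arrays; other probe sets were tested over all 45101. Tests used limma 3.58.1 in R 4.3.3 (lmFit, 1 coefficient per group, eBayes), two-sided, Benjamini-Hochberg adjusted over all features. The procedure was tested on simulated data, and no result of that test is given here.

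The genes and lists were chosen with earlier results of these data known. The text names the 10 genes with all probe sets, Nfe2l2 and Keap1, and up to 4 genes of a list past the threshold by smallest adjusted p. It also names the 2 genes just outside it among those higher with RA839 in WT, and the most correlated genes. Slc30a1 in WT, Mt3 and Mt4 are given with their whole list. Dnajb4 was named after its values were seen. The 7 genes of the same pool were named after their values were seen. Motifs were searched in RefSeq promoter windows.

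Same-numbered arrays deviated together within WT (correlations across genes of 0.27 to 0.46), KO (0.66 to 0.70) and the siRNA experiment (0.12 to 0.66), each above 0.1, but not between genotypes (-0.29 to -0.006). The labels give the numbers and not what they share. Alternatives were a trended robust prior, other arrays in the fit, brighter genes, the mean over a gene's probe sets, no probe sets ending _x_at or _s_at, quantile and median normalization, a replicate block, a stricter threshold and each array left out.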

Additional observations from a re-analysis of the deposited data

Results flagged for a closer look

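Of 126 groups of 4 arrays examined, 6 held an array whose gap to the nearest other exceeded Dixon's 95% limit, and chance alone flags about 1 in 20 groups. Slc25a42 probe set 1424790_at read 6.54 in KO DMSO array 1, against 6.24 to 6.27 on the other 3 arrays, and without that array the KO response of Slc25a42 reached its highest leave-one-out value of 0.25. Cilk1 probe set 1455687_at read 8.02 in WT DMSO array 3, against 8.28 to 8.30, and 8.10 in siControl array 2, against 8.25 to 8.27. Cilk1 probe set 1457165_at read 3.86 in KO RA839 array 3, against 4.11 to 4.12. The 3′ minus 5′ difference of the Gapdh control probe sets was 3.74 in WT RA839 array 2, against 0.88 to 1.00 on the other arrays of the group, and that of Actb was 1.98 in WT DMSO array 4, against 1.68 to 1.71. Gdap10 moved in opposite directions with RA839 in every numbered pair of the 2 genotypes, with changes of -0.23 in KO and 1.47 in WT; this difference was not tested, because the WT change was used to choose the gene.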

How the results depend on the processing

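Genes past the threshold with RA839 in WT numbered 120, and 65 when only the compared groups were fitted, 306 with all 28 arrays in 1 fit, 486 with the replicate block, 53 at an adjusted p under 0.01, and 72 to 136 with 1 array left out (72 without WT RA839 array 4, 74 without WT DMSO array 1). In KO the count was 0 in every alternative, the replicate block included, with 321 genes at an unadjusted p under 0.05. For KO against WT averaged it was 8139, 4673 among the brighter genes (2592 of them higher), 6202 with the replicate block, as means of same-numbered arrays chosen after seeing the data, and 7553 to 8576 with 1 array left out. A block fitted within each genotype was not run for this comparison. For siKeap1-1 it was 2741, 1470 with all 28 arrays, 4371 with the replicate block, 1468 at 0.01 and 2018 to 2685 with 1 array left out. For siKeap1-2 it was 2038, 1005, 3719, 991 and 1361 to 2565 under the same settings. The pool of genes raised by RA839 in WT and by neither siRNA held 16, and 6 with only the compared groups (1 of the 9 genes, Gdap10), 77 with all 28 arrays (7 of 9), 10 among the brighter genes (4 of 9), 75 with the replicate block (8 of 9) and 9 to 26 with 1 array left out. The mean over a gene's probe sets left Slc25a42 and Cilk1 out of the pool, and leaving out probe sets ending _x_at or _s_at left out Dppa2. The count of genes with separated KO arrays, 6, was 5 or 6 under the other normalizations and probe set rules and 6 to 8 with 1 KO array left out, chosen after seeing the data. Signs turned for Dppa2 without probe sets ending _x_at or _s_at (-0.0074 with RA839 in KO and 0.20 in KO against WT), for Cilk1 in KO against WT over all its probe sets (0.054), and for Dnajb2 there in 4 of 16 left-out arrays (-0.043 to 0.012). The replicate block changed the calls of Gdap10 and Mt2 with the siRNAs given above and no other call of the 10 genes. Mt1 in KO against WT passed the threshold under 8 alternatives (adjusted p from 0.000142 without probe sets ending _x_at or _s_at to 0.0392 without WT DMSO array 3). The causes were not tested. Probe sets that read low, as for Dppa2, limit how far a change can be read.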

Other observations

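Some of the genes most correlated with the 10 had changes of similar size in both genotypes, and others did not. H2bc21, nearest to Dnajb2, changed by 0.60 with RA839 in KO and 0.65 in WT, and Fam120aos, nearest to Krt10, by 0.52 in KO and 0.73 in WT. Atp6v1g2, nearest to Cilk1, changed by 0.34 in KO and 0.46 in WT. By contrast, D16Ertd472e, among the nearest to Mt1, changed by -0.05 in KO and 1.38 in WT. Nudt12, nearest to Pbld2, changed by 0.21 in KO and 0.94 in WT, and Rmc1, nearest to Gdap10, by -0.01 and 0.51. All these genes were picked for likeness over these same arrays, so the values are a description, and 0 of them passed the threshold in KO (limma).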
